A study of Arabidopsis thaliana with 12 samples.

Results

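The 4 genes described here belong to families or pathways that act against reactive oxygen and reactive carbonyls: CCS (AT1G12520), SRX (AT1G31170), GLDH (AT3G47930) and GLX2-1 (AT2G43430). The genes were chosen by name from the probes that the platform annotation assigns to a single gene, with names updated through the gene identifier. Each had 1 such probe, so 4 of the 692 single-gene probes among 3439 probes in the table are described, and 0 of the probes naming several genes named one of them. Transcript levels were read from arrays of total RNA of Arabidopsis thaliana, all of the wild-type accession Columbia 0. In 6 samples the leaves had been cut mechanically and the plants were taken 2 days later, and 6 samples came from untreated plants with no day given, so harvest time and wounding cannot be told apart. Age and organ were not stated, and no label says that the arrays come from different plants, so the p-values reflect array-to-array spread that may be technical.

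Plant cells that carry out photosynthesis and respiration release superoxide and hydrogen peroxide, and several enzyme systems remove them. Superoxide dismutases turn superoxide into hydrogen peroxide, and CCS loads copper into the copper/zinc forms of this enzyme in the cytosol and the plastid. Peroxiredoxins then reduce peroxides and can be inactivated by over-oxidation of their catalytic cysteine, which sulfiredoxin, the product of SRX, reverses in plastids and mitochondria. GLDH, galactonolactone dehydrogenase of the inner mitochondrial membrane, makes ascorbate in the last step of its synthesis and is also known from the assembly of respiratory complex I. GLX2-1 belongs to the glyoxalase II family, whose typical members release lactate and glutathione in the last step of methylglyoxal detoxification. Whether GLX2-1 itself does so cannot be read from transcript levels. Cutting leaves is known to trigger an oxidative burst.

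Over all arrays, wounded replicate 4 stood apart. Its correlation with the other arrays over probes was between 0.430 and 0.500, against 0.876 or more among the other 11, so the results of each gene are given with it (12 arrays) and without it (11 arrays). A further 5 pairs of arrays resembled each other closely, with r between 0.953 and 0.985. In the untreated group these were replicates 1 with 2, 3 with 4 and 5 with 6, and in the wounded group replicates 2 with 3 and 5 with 6. These alike arrays are counted as separate samples unless stated, which may lower p. Of 10 leaf photosynthesis genes listed, 7 had a single-gene probe. In the untreated group PSBW, a photosystem II subunit, lay on average at the 99.6th and LHB1B2, a light-harvesting protein, at the 98.0th percentile of brightness, PRK, PSBY and PSAN between the 77.0th and the 79.5th, SBPASE at the 54.5th and the chlorophyll synthesis gene CHLM at the 30.8th. Of the lists of root, seed storage and wound-response genes, 0 members had a single-gene probe.

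CCS was the member whose groups were best separated. The deposited intensities, on a linear scale relative to the array, had a lowest value of 1.64, a median of 1.71 and a highest of 1.84 in the 6 untreated arrays. In the 6 wounded arrays they had a lowest value of 0.163, a median of 1.19 and a highest of 1.39. Every wounded array thus lay below every untreated array, as for 4.36% of all probes on this scale over 12 arrays and 6.68% over 11, and the lowest value belonged to wounded replicate 4. After quantile normalization, which gives all arrays the same distribution of values, the log2 level was 0.67 ± 0.061 (SD, n = 6) in untreated arrays and -0.18 ± 1.24 (SD, n = 6) in wounded ones. The large spread of the wounded group came with wounded replicate 4 at -2.70, and without it the level was 0.33 ± 0.12 (SD, n = 5). The groups did not overlap on this scale over 12 or 11 arrays. After normalization, such a complete separation downward was seen for 2.17% of all 3233 probes over 12 arrays and for 3.15% of 3203 over 11. With each array centred on its median instead, 5 of 6 wounded arrays, or 4 of 5 without replicate 4, lay below all untreated ones, so the complete separation depended on the scaling.

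**Figure D1:**
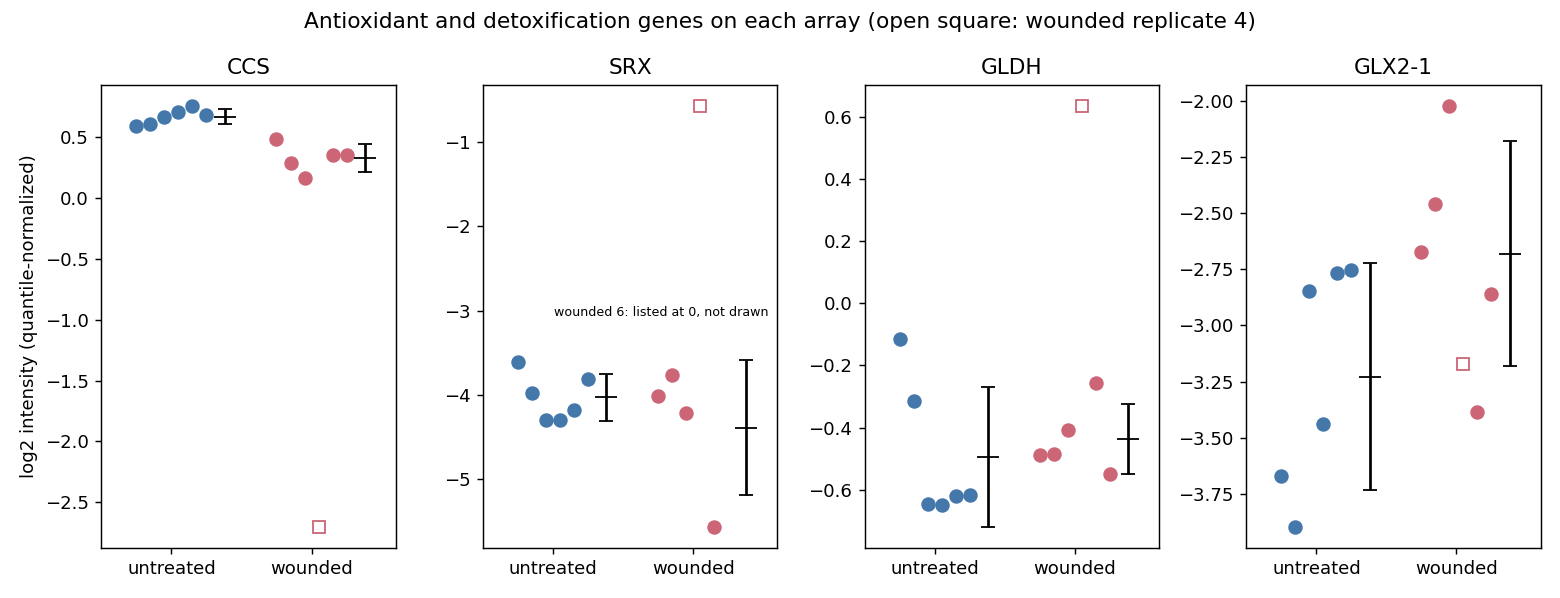
Quantile-normalized log2 intensity of CCS, SRX, GLDH and GLX2-1 on each array (vertical axes, 1 scale per gene), for untreated (blue) and wounded (red) samples in order of replicate number; bars give the mean and SD without wounded replicate 4, which is the open square. On this scale CCS is lower on each wounded array, GLX2-1 is highest on 3 wounded arrays, and wounded replicate 4 lies far from its group for CCS, SRX and GLDH.

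The log2 difference of CCS, wounded minus untreated, was -0.85 ± 0.46 (SE) over 12 arrays and did not pass the threshold of 0.05 on the adjusted p (limma, adjusted p = 0.491). Over 11 arrays it was -0.34 ± 0.092 (SE), a level of 0.789-fold with a 95% interval from 0.687-fold to 0.907-fold, and an adjusted p of 0.0721 in limma, again not past the threshold. Its unadjusted p over the 11 arrays ranked 134 of 3203 probes. An exact two-sided permutation test over single arrays gave p = 0.00216 for CCS with 12 and with 11 arrays, the smallest either design allows. With 12 arrays every probe whose groups do not overlap, in either direction, gets this p. With 11 arrays only such probes can reach it. It thus restates the separation described above and adds no further evidence. The share of probes separated upward was not counted. When the alike arrays were averaged first, the exact permutation p was 0.229 over 12 arrays and 0.1 over 11, where 0.1 is the smallest that 3 against 3 can give. When the alike arrays formed a random block, the log2 difference of CCS was -1.07 ± 0.61 (SE, limma adjusted p = 0.931) over 12 arrays and -0.32 ± 0.13 (SE, adjusted p = 0.546) over 11. Of the other choices, 3 brought CCS past the threshold over 11 arrays, as given in the closing section, with the lowest limma adjusted p at 0.0202.

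The spread of CCS depended on wounded replicate 4. Its SD of log2 values among the untreated arrays lay at the 1.11th percentile of all probes tested, against a median SD of 0.257 over the probes. Among the wounded arrays it lay at the 85.9th percentile with replicate 4 and at the 7.18th without it. The wounded arrays other than replicate 4 stood at 0.49 on wounded 1, a mean of 0.23 on wounded 2 and 3, and a mean of 0.35 on wounded 5 and 6 (log2 levels). CCS was among the brighter probes, at the 82.2nd percentile of mean log2 level over the 12 arrays.

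SRX, by contrast, was dim, at the 6.06th percentile. Its deposited intensities had a lowest value of 0.0445, a median of 0.0763 and a highest of 0.108 in the untreated arrays. In the wounded arrays the values were 0.0535, 0.0515, 0.0358, 0.529, 0.0204 and 0 for replicates 1 to 6. Wounded replicate 4 was thus several times brighter than every other array, while wounded replicate 6 was listed at 0 and was treated as missing in the fit. The log2 level was -4.03 ± 0.28 (SD, n = 6) in untreated arrays and -4.39 ± 0.80 (SD, n = 4) in wounded arrays without replicate 4. Within those 4, replicates 1 to 3 lay inside the range of the untreated arrays on this normalized scale and replicate 5, at -5.56, lay below it. As deposited, replicates 3 and 5, and replicate 6 at 0, lay below the lowest untreated value.

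The sign of the SRX difference turned on 1 array. It was 0.40 ± 0.67 (SE, limma adjusted p = 0.796) on the log2 scale over 12 arrays and -0.36 ± 0.31 (SE, adjusted p = 0.550) without wounded replicate 4. Neither passed the threshold, and the 95% interval over 11 arrays ran from 0.481-fold to 1.26-fold. With the values as deposited the log2 difference of SRX was -0.11 over 12 arrays and -0.88 ± 0.34 (SE, limma adjusted p = 0.119, unadjusted p = 0.0254) over 11, and relative to the median of all probes on that scale, at -0.32 and -0.31, it was 0.21 and -0.56. With the value listed at 0 kept, by adding 0.1 before taking logs, the log2 difference over 11 arrays was -0.19 ± 0.14 (SE, limma adjusted p = 0.492). The exact permutation test gave p = 0.693 over 12 arrays and p = 0.395 over 11.

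**Figure D2:**
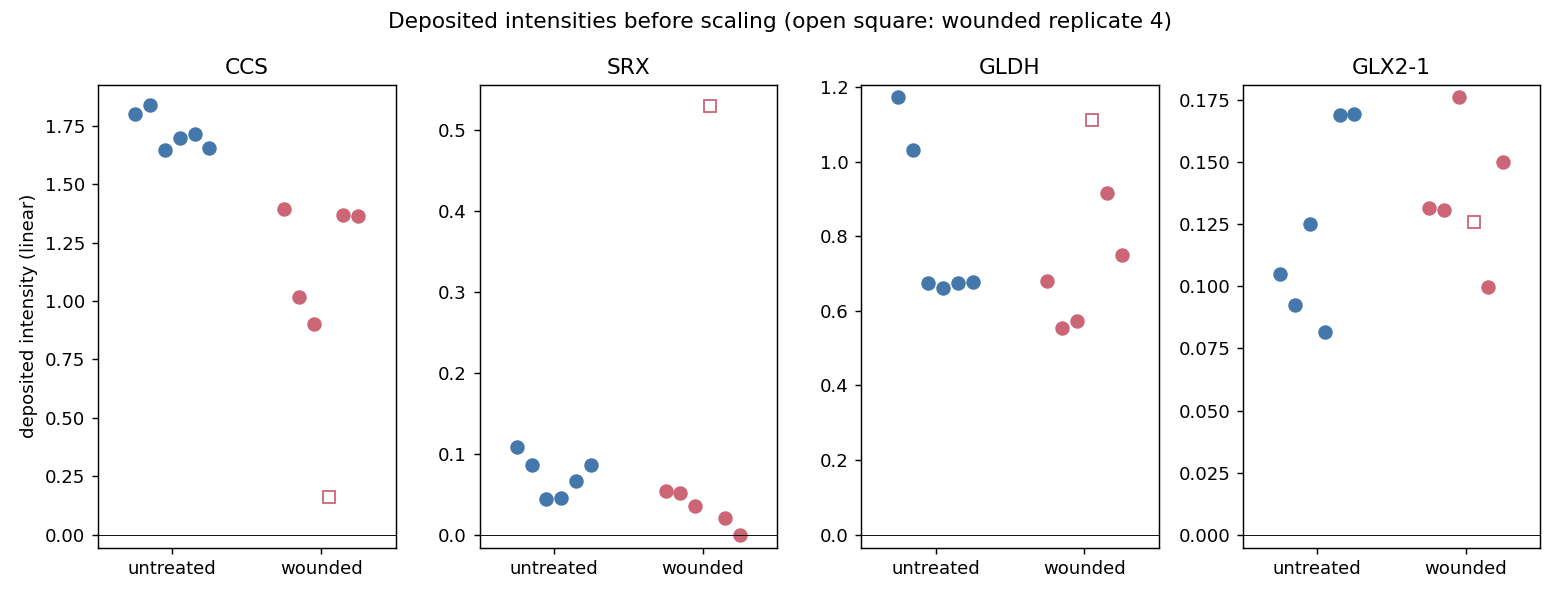
Intensity as deposited, on a linear scale and before the normalization applied here (vertical axes, 1 scale per gene), for each untreated (blue) and wounded (red) array. Wounded replicate 4 is the open square, and how the authors scaled the values is not given. For SRX the array at 0.529 is wounded replicate 4 and wounded replicate 6 is at 0; for CCS the untreated arrays lie between 1.64 and 1.84.

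GLDH, the ascorbate synthesis gene, had nearly the same mean normalized level in both groups once wounded replicate 4 was left out. Its deposited intensities had a lowest value of 0.660, a median of 0.676 and a highest of 1.17 in untreated arrays, and a lowest of 0.553, a median of 0.714 and a highest of 1.11 in wounded arrays. The highest wounded value was that of replicate 4, and the highest untreated values were those of the alike replicates 1 and 2, so the groups overlapped. On the normalized log2 scale the level was -0.49 ± 0.23 (SD, n = 6) in untreated arrays, -0.26 ± 0.45 (SD, n = 6) in wounded arrays and -0.44 ± 0.11 (SD, n = 5) without replicate 4. Untreated 1 and 2, at -0.11 and -0.32, lay above the other 4 untreated arrays, which lay between -0.65 and -0.62. The means of the untreated alike pairs differed by up to 0.43, while the 5 wounded arrays other than replicate 4 lay between -0.55 and -0.26. On this scale those 5 thus lay above the 4 lower untreated arrays, so similar means do not make the groups alike.

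The log2 difference of GLDH was 0.23 ± 0.22 (SE, limma adjusted p = 0.632) over 12 arrays and 0.056 ± 0.13 (SE, adjusted p = 0.846) over 11. The 95% interval over 11 arrays ran from 0.860-fold to 1.26-fold. It was not adjusted over probes and is no limit of detection, so a larger change could also have missed the threshold. The exact permutation test gave p = 0.325 over 12 arrays and p = 0.632 over 11. With the values as deposited the sign was negative, at -0.098 over 12 and -0.22 over 11 arrays. Relative to the median of all probes on that scale GLDH was at 0.22 and 0.098.

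GLX2-1, the member of the glyoxalase II family, had the highest mean difference upward of the 4 over 11 arrays. It was dim as well, at the 12.9th percentile of mean level. Its deposited intensities had a lowest value of 0.0817, a median of 0.115 and a highest of 0.169 in untreated arrays, and a lowest of 0.0997, a median of 0.131 and a highest of 0.177 in wounded arrays. These ranges of deposited values overlapped almost wholly. After normalization the log2 level was -3.23 ± 0.50 (SD, n = 6) in untreated arrays and -2.76 ± 0.49 (SD, n = 6) in wounded ones, or -2.68 ± 0.50 (SD, n = 5) without replicate 4. Wounded 1, 2 and 3, at -2.67, -2.46 and -2.02, lay above every untreated array on this scale. That number depended on the scaling, as 2 wounded arrays did so with median centring and 1 with the values as deposited. After quantile normalization wounded 4, 5 and 6 lay inside the untreated range, at -3.17, -3.38 and -2.86.

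The log2 difference of GLX2-1 was 0.47 ± 0.28 (SE, limma adjusted p = 0.508) over 12 arrays and 0.55 ± 0.28 (SE, adjusted p = 0.288) over 11, where the interval ran from 0.958-fold to 2.23-fold. Neither passed the threshold. The exact permutation test gave p = 0.139 over 12 arrays and p = 0.106 over 11. With the alike arrays averaged first, the exact permutation p was 0.343 over 12 arrays and 0.2 over 11. When the alike arrays formed a random block, the log2 difference over 11 arrays was 0.55 ± 0.43 (SE, limma adjusted p = 0.823). With the values as deposited the difference was 0.17 and 0.18, and relative to the median of all probes it was 0.49 and 0.50. Wounded replicate 4 moved this gene less than the other 3, by -0.49 from the mean of the other wounded arrays, against -3.03 for CCS, 3.82 for SRX and 1.07 for GLDH (log2 differences). The untreated pairs of GLX2-1 also differed, with pair means between -3.78 and -2.76.

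**Figure D3:**
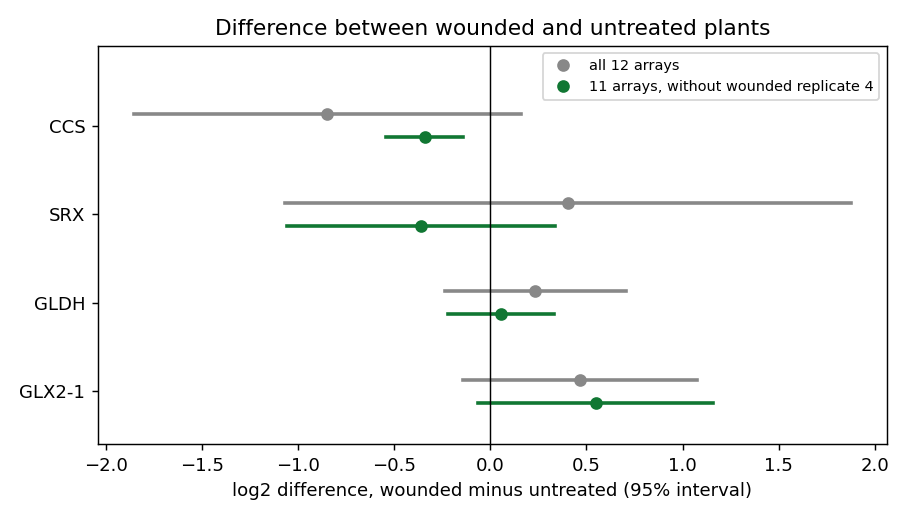
Log2 difference, wounded minus untreated (horizontal axis), of each gene over all 12 arrays (grey) and over 11 arrays without wounded replicate 4 (green), with 95% intervals from limma. CCS lies below 0 in both, with an unadjusted interval that excludes 0 over 11 arrays; SRX changes sign and the other intervals include 0.

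Of the members, 0 of 4 passed the threshold over 12 arrays, where 0% of 3233 probes passed. Also 0 of 4 passed over 11 arrays, where 2.22% of 3203 probes passed. At an unadjusted p under 0.05, 0 of 4 members over 12 arrays stood against 11.6% of all probes, and 1 of 4 over 11 arrays, CCS, against 20.8%. The median log2 difference of the members was 0.32 over 12 arrays and -0.14 over 11, beside -0.025 and -0.022 over all probes. Over 12 arrays 3 members had a positive difference and 1 a negative one. Over 11 arrays 2 were positive and 2 negative.

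Ratios of members within an array do not depend on a factor that scales the whole array, but quantile normalization is not such a factor and can shift them. The ratios given first are of quantile-normalized values. The log2 ratio of CCS to GLX2-1 was 2.59 ± 1.16 (SD, n = 6) on the wounded and 3.90 ± 0.46 (SD, n = 6) on the untreated arrays, a difference of -1.31, and without wounded replicate 4 it was 3.01 ± 0.58 (SD, n = 5), a difference of -0.89. Without that array, 4 of 5 wounded arrays lay below the lowest untreated one on this scale, a count that depended on the scaling. For CCS to GLDH the difference between the groups was -1.08 over 12 arrays and -0.40 over 11, and for CCS to SRX it was -1.36 and 0.012. For SRX to GLX2-1 it was -0.083 and -0.95, for SRX to GLDH 0.11 and -0.44, and for GLDH to GLX2-1 -0.23 and -0.49. From the values as deposited the differences over 12 and 11 arrays were -1.18 and -0.72 for CCS to GLX2-1. They were -0.91 and -0.32 for CCS to GLDH, and -1.03 and 0.29 for CCS to SRX. For SRX to GLX2-1 they were -0.25 and -1.02, for SRX to GLDH -0.011 and -0.63, and for GLDH to GLX2-1 -0.27 and -0.40. Wounded replicate 4 thus moved most of the 6 ratios, which are given as a description, without a test.

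Among 103 genes of superoxide removal and copper supply, peroxiredoxins and thioredoxins, ascorbate synthesis, the ascorbate-glutathione cycle, glyoxalases and tocopherol synthesis, 6 had a single-gene probe. Besides the 4 members these were NTRC and AT3G52960, both of the list of peroxiredoxins, thioredoxins and thiol repair. NTRC is the plastid thioredoxin reductase that feeds electrons to peroxiredoxins. It had a log2 difference of 0.38 ± 0.26 (SE, limma adjusted p = 0.536) over 12 arrays and 0.30 ± 0.25 (SE, adjusted p = 0.529) over 11. AT3G52960 had 0.024 ± 0.28 (SE, adjusted p = 0.970) and 0.0015 ± 0.29 (SE, adjusted p = 0.999). So 0 of these 6 genes, the 4 members included, passed in either direction over 12 or 11 arrays, where 0% of 3233 and 2.22% of 3203 probes passed. The superoxide dismutases that CCS serves, the catalases and the enzymes of the ascorbate-glutathione cycle had no single-gene probe.

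The single-gene probes whose levels ran most like each member over the 11 arrays were found by Pearson's r, as a description over arrays of which 10 form alike pairs and with r over all 12 arrays beside it. For CCS they were AT1G68430 (r = 0.946 and 0.961), SWAP70 (0.915 and -0.502) and AT4G05070 (0.877 and 0.937), of 612 probes compared. Over 12 arrays these 3 genes had log2 differences of -0.90 ± 0.34, -0.77 ± 0.52 and -1.09 ± 0.36 (SE), none past the threshold (limma adjusted p between 0.292 and 0.543). Over 11 arrays AT1G68430 had a log2 difference of -0.56 ± 0.14 (SE, limma adjusted p = 0.0606), SWAP70, a guanine nucleotide exchange factor, fell by 1.27 ± 0.28 on the log2 scale (adjusted p = 0.0419), and AT4G05070 fell by 0.73 ± 0.15 (adjusted p = 0.0371). These 3 probes were picked for running like CCS on the same arrays. Lower levels on the wounded arrays thus follow in part from that choice and give no support to the difference of CCS. Of all 3203 probes, 0 passed when the alike arrays formed a random block, where the smallest limma adjusted p was 0.149 and 243 probes had an unadjusted p under 0.05. SRX ran most like AT4G17260 (0.975 and 0.960), AT4G25290 (0.838 and -0.663) and AT3G61870 (0.831 and -0.273), over the 10 arrays of the 11 on which SRX had a value. GLDH ran most like AT1G33250 (0.824, with no value on wounded replicate 4), AT4G29120 (0.820 and 0.906) and AT1G02020 (0.773 and 0.834). GLX2-1 ran most like the calmodulin-like gene CML30 (0.900 and 0.569), the histidine synthesis gene AT-HF (0.898 and 0.407) and APS4, an ATP sulfurylase (0.882 and 0.871). Over 11 arrays none of the probes named for SRX, GLDH or GLX2-1 passed the threshold (limma adjusted p of 0.333 or more).

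**Figure D4:**
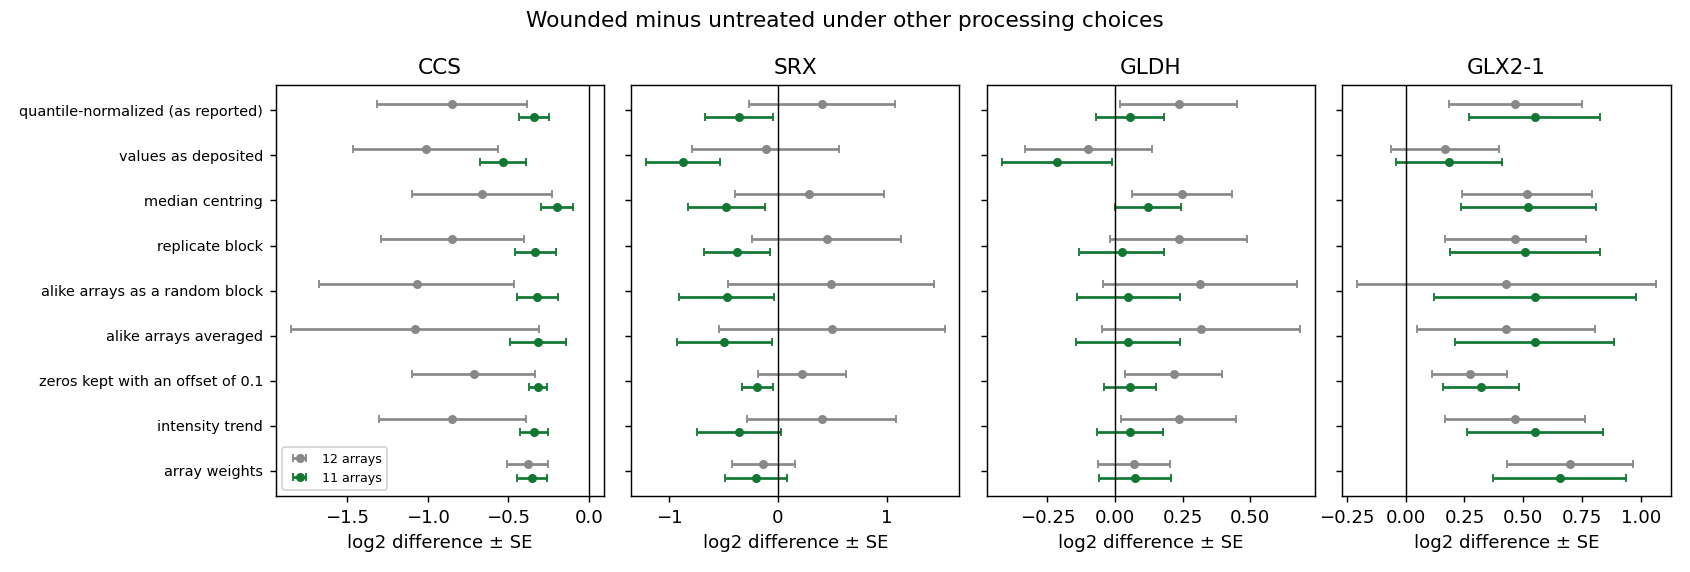
Log2 difference, wounded minus untreated, with its SE (horizontal axes) for each gene under the reported processing (top line) and 8 other choices, over 12 arrays (grey) and 11 arrays without wounded replicate 4 (green). CCS stays below 0 and GLX2-1 above 0 under each choice drawn, while SRX and GLDH lie on both sides of 0.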

How the data were processed

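Intensities on a linear scale, none below 0, were deposited for 12 arrays, with a mean between 0.983 and 1.09 per array. How the authors made these values (array type, background, scaling) is not given in the sources used here. No signal over background was available, so how far the dim SRX and GLX2-1 probes stood above background is unknown. The small number of arrays also limits the precision. Groups and replicate numbers came from the sample titles. Probe names came from GEO's platform annotation, which can be old, and were brought up to date by gene identifier with RefSeq's table for TAIR10.1 (690 of 692 single-gene probes matched). Coordinates are left out because no build is named.

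Listed values of 0 were set to missing before log2 and quantile normalization. A probe was fitted when 4 or more arrays of each group had a value. The test was limma (version 3.58.1, R 4.3.3) with lmFit and eBayes, two-sided, with Benjamini-Hochberg adjustment over all probes. Errors of differences are moderated standard errors. SRX had no value on wounded replicate 6. The fit was tested on simulated data with known changes. Named genes are the members, every listed gene with a single-gene probe, and for each member the 3 probes most like it. Members, lists and the removal of wounded replicate 4 were chosen with earlier results of these data known. Alternatives covered scaling, zeros, filters, variance models, blocks, exact permutation and left-out arrays. Averaging alike arrays before the exact permutation test was chosen after seeing the data. No label pairs same-numbered arrays, and the correlations of their deviations from the group means lay between -0.363 and 0.148, so the numbers were not used as pairs. Plots used matplotlib 3.10.9 (Python 3.11.15).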

Additional observations from a re-analysis of the deposited data

Results flagged for a closer look

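For CCS, wounded replicate 4 lay far below the other wounded arrays, at -2.70 on the normalized log2 scale, and the gap took up 0.899 of the whole range. For GLDH the same array lay far above the others, at 0.63, and the gap took up 0.753 of the range. Gaps past the limit used, 0.625 of the range for 6 arrays, arise by chance in about 1 in 20 groups, and this array stood apart over all probes. The reason why it stood apart was not tested.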

How the results depend on the processing

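No member passed the threshold in limma over 12 arrays under any alternative run. CCS kept its negative and GLX2-1 its positive sign under every alternative run, over 12 and 11 arrays. For CCS over 12 arrays, at the same difference of -0.85, the exact permutation p over single arrays was 0.00216, not adjusted over probes, and 0.229 with alike arrays averaged (-1.08). Over 11 arrays CCS was called with an offset of 0.1 (-0.31, limma adjusted p = 0.0202), among probes brighter than the median (-0.34, adjusted p = 0.0427) and without wounded replicate 1 (-0.38, adjusted p = 0.0492), while the unadjusted exact permutation p was 0.00216 at -0.34 and 0.1 with alike arrays averaged (-0.32). The adjusted p of CCS over 11 arrays ranged up to 0.780 with alike arrays averaged. With median centring its difference was -0.20 ± 0.10 (SE, limma adjusted p = 0.270, unadjusted p = 0.0721). As deposited it was -0.54, or -0.22 relative to the median of all probes on that scale, at -0.31. Leaving out 1 more array moved the quantile-normalized difference of CCS between -0.38 and -0.30. SRX reversed over 12 arrays with the values as deposited (-0.11), with array weights (-0.13) and without wounded replicate 4, and leaving out 1 array moved it between -0.36 and 0.89, the latter without wounded replicate 5. GLDH reversed with the values as deposited, at -0.098 over 12 and -0.22 over 11 arrays. Causes were not tested.

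Over all probes, 0 passed over 12 arrays, 7 with the values as deposited, 1 with the offset and 179 with array weights, and between 0 and 71 with 1 array left out, 71 without wounded replicate 4. Over 11 arrays 71 passed, 0 with the replicate number as a block, 0 with alike arrays as a random block, 0 with them averaged, 137 with the offset and 119 with array weights. With 1 more array left out the count lay between 2 (without untreated replicate 4) and 125 (without wounded replicate 1). The split of 31 higher and 40 lower became 48 and 24 with median centring and 6 and 81 as deposited. With the replicate block no member passed (CCS over 11 arrays -0.33, adjusted p = 0.329). For SRX over 11 arrays, leaving out wounded 1, 2, 3 or 5 left too few values for a fit, and filters on dim or incomplete probes removed it.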
